A study of Mus musculus with 32 samples.

Results

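Adipose tissue releases proteins that act on other cells, and 9 such secreted factors were followed over the day in iBAT, brown fat of the interscapular region, which burns fuel to make heat. The genes were Adipoq, Lep, Retn, Cfd, Rbp4, Nrg4, Bmp8b, Vegfa and Fgf21, taken by symbol from a count table of 50686 genes, and all 9 were found. The tissue came from male C57BL/6J mice aged 10 weeks, which had chow at all times, a 12 h light and 12 h dark cycle and a room temperature below thermoneutrality. They had no genetic change and no treatment, and were grouped by time of day. Time was given as Zeitgeber time (ZT), in hours from lights on, with the dark (active) phase from ZT12. Tissue was taken at 8 times, every 3 h, each time from 4 mice whose RNA made 1 library apiece.

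Adipokines are hormones and other proteins made by fat. Leptin (Lep) reports fat stores to the brain and lowers food intake, adiponectin (Adipoq) raises insulin sensitivity, resistin (Retn) lowers it in mice, adipsin (Cfd) is a protease that starts the alternative complement pathway, and retinol-binding protein 4 (Rbp4) carries vitamin A. The other members are factors that brown fat is known to release: neuregulin 4 (Nrg4), a ligand of ErbB receptors that acts on the liver, vascular endothelial growth factor A (Vegfa), which keeps the tissue supplied with vessels, bone morphogenetic protein 8b (Bmp8b), which raises the response to noradrenaline, and fibroblast growth factor 21 (Fgf21), an endocrine signal of fasting and cold. White fat is the main source of leptin and resistin, and liver that of circulating Fgf21 and Rbp4.

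On build GRCm38, Adipoq lies at chr16:23146536-23158028, Lep at chr6:29060220-29073877, Retn at chr8:3655770-3660110, Cfd at chr10:79890853-79892655 and Bmp8b at chr4:123105165-123132099, all on the plus strand. On the minus strand lie Rbp4 at chr19:38116629-38125281, Nrg4 at chr9:55220222-55326844, Vegfa at chr17:46016993-46032369 and Fgf21 at chr7:45613886-45615490. The values are counts of reads over each gene as a whole, so that isoforms are not told apart.

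The libraries held 16300770 to 18254659 counts, with a median of 17418661. All 8 time points were read on 3 sequencing lanes: ZT0, ZT3 and ZT6 on lane 2, ZT9, ZT12 and ZT15 on lane 3, and ZT18 and ZT21 on lane 4. A difference between time points of 2 lanes cannot be told apart from a difference between the lanes, so the cosine was repeated with lane as a term and the differences between time points within lanes. JTK and the pairs of time points 12 h apart have no such repeat. In counts scaled to library size (CPM), the sum of 7 brown adipocyte markers lay between 8902 and 14783 CPM in every library. These were Ucp1, Cidea, Plin1, Plin5, Fabp4, Elovl3 and Cox7a1, a list not limited to genes absent from white fat. White fat markers summed to 5.78 to 96.5 CPM, with 2 of 6 markers at a mean of at least 1 CPM and Hoxc10 and Tcf21 at 3 counts or fewer over all libraries. Skeletal muscle markers summed to between 1.95 and 5065 CPM with wide variation inside time points. Since whole tissue was measured, fewer cells of a type and less RNA per cell cannot be told apart.

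Per kilobase of exon, Cfd had the highest level, with a mean of 1392 CPM per kb and a range of 895 to 2188 over the 32 mice. Adipoq followed with 599 CPM per kb and a range of 454 to 716, and Vegfa with 133 CPM per kb and a range of 101 to 162. These 3 ranges did not overlap one another or any other. Rbp4 had a mean of 44.3 CPM per kb, Lep of 30.8, Nrg4 of 26.7 and Retn of 26.5, and the ranges of these neighbours overlapped. Fgf21 had 0.178 CPM per kb and Bmp8b 0.0397 CPM per kb. Both were below the filter on low counts, which left 7 of the 9 genes among 15505 tested. All remaining levels are in CPM, scaled by library size and TMM (a factor that evens out library composition).

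**Figure D1:**
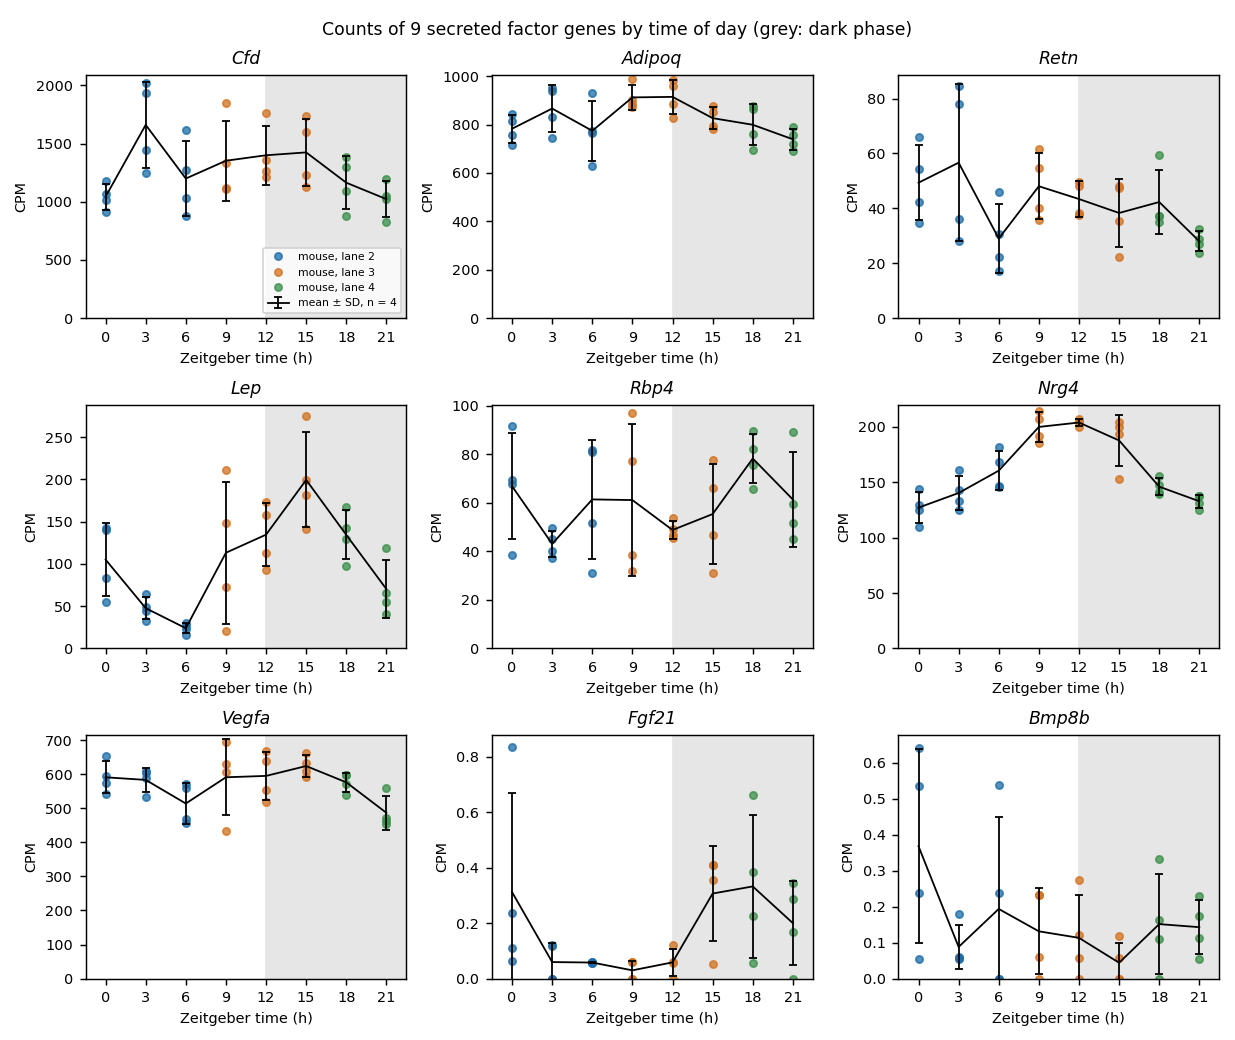
CPM of each of the 9 genes (vertical axes, starting at 0) against Zeitgeber time in hours, with 1 point per mouse coloured by sequencing lane and the mean ± SD of 4 mice as a line. Lep lay between 16.2 and 29.9 CPM at ZT6 and between 141 and 275 CPM at ZT15, Nrg4 was highest at ZT9 to ZT15, and Fgf21 and Bmp8b stayed under 1 CPM.

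Diurnal oscillation was asked with a 24 h cosine in edgeR's quasi-likelihood test, with p adjusted by Benjamini-Hochberg over all tested genes. Lep, Nrg4 and Adipoq passed, 3 of 7 genes, where 36.1% of all tested genes passed. With lane as a term in the model, Lep and Nrg4 passed, 2 of 7, where 17.2% of all genes did. In the test for any difference between time points Lep, Nrg4 and Cfd passed, 3 of 7, beside 39.8% of all genes. JTK_CYCLE is a rank test of oscillation, used at a P under 0.05 adjusted for the patterns tried per gene but not over genes. It called Lep, Nrg4 and Adipoq, 3 of 7, beside 36.4% of all genes. The same 3 passed at a P under 0.05 adjusted over genes, beside 27.1%. With 7 members, shares this near to those of all genes are no result about the group as a whole.

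**Figure D2:**
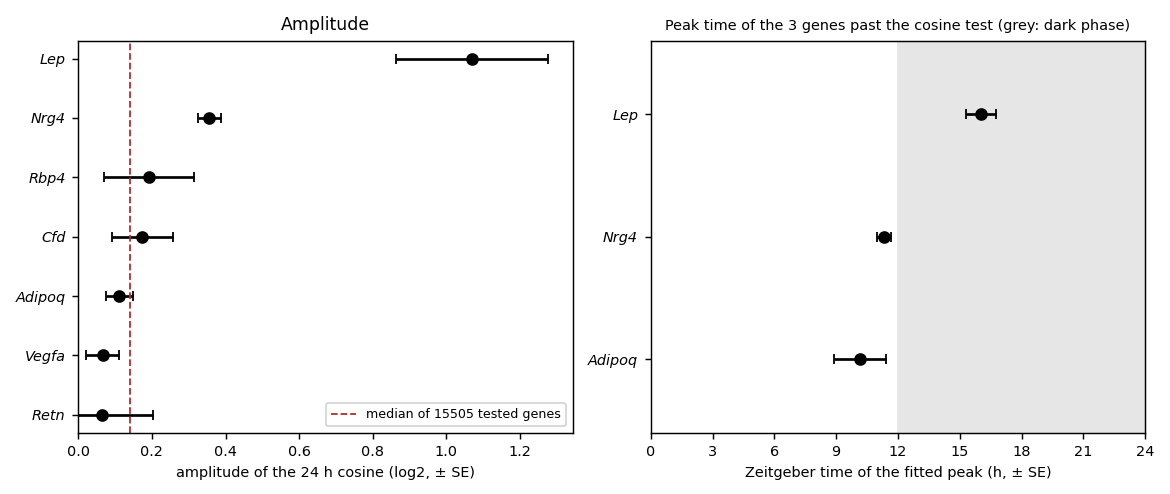
Left, amplitude of the fitted 24 h cosine on the log2 CPM scale (± SE) for the 7 tested genes, with the median of all 15505 tested genes, 0.14, as a dashed line. Right, Zeitgeber time of the fitted peak (h, ± SE) for the 3 genes past the cosine test. Lep had an amplitude of 1.07 and a peak at ZT16.0, and Nrg4 an amplitude of 0.36 and a peak at ZT11.3.

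Lep showed the widest swing of the 7 genes. Its mean fell from 105 CPM ± 43.3 (SD, n = 4) at ZT0 over 47.6 CPM ± 13.2 at ZT3 to 23.8 CPM ± 5.82 at ZT6, and it was 8.38 times as high, at 199 CPM ± 56.3, at ZT15. Mouse by mouse, ZT6 held 26.0, 23.1, 29.9 and 16.2 CPM and ZT3 held 64.6, 44.7, 48.5 and 32.4 CPM. No mouse at ZT3 was as low as any at ZT6. In the dark phase the 4 mice of ZT12 had 113, 93.0, 158 and 173 CPM, those of ZT15 275, 141, 181 and 200 CPM, and those of ZT18 143, 167, 129 and 97.5 CPM. The mice of these 3 time points overlapped one another and lay above all mice of ZT3 and ZT6. How many of all genes keep these time points, or ZT3 and ZT6, apart was not counted. For the pair ZT15 against ZT3, 17.3% of all genes had no overlap of mice, and for ZT18 against ZT6 22.9%. The least even time point was ZT9, where the mice had 72.6, 20.1, 211 and 149 CPM, from the level of ZT6 to that of ZT15.

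The white fat markers had a median sum of 39.0, 25.7 and 22.9 CPM at ZT9, ZT12 and ZT15, the time points of lane 3, and of 10.4, 17.7, 9.85, 12.2 and 9.33 CPM at ZT0, ZT3, ZT6, ZT18 and ZT21. These markers were Hoxc8, Hoxc9, Hoxc10, Tcf21, Wnt10b and Nnat. The authors of the data list Nnat as oscillating in iBAT. In the sum, time of day and white fat content therefore cannot be told apart. The part of the white fat markers in the Lep result was not tested. Skeletal muscle markers had medians of 1089, 33.6 and 3.57 CPM at ZT0, ZT3 and ZT6 and 2050 CPM at ZT15. A fit with their level as a covariate was chosen after seeing the data. In it Lep had an adjusted p of 0.0188 for the cosine beside lane and of 0.00910 within lane 2. Since the medians fell with time in lane 2, this fit cannot fully tell muscle and time apart there. The 24 h cosine of Lep had an amplitude of 1.07 ± 0.21 (SE, log2), where the median of all tested genes was 0.14, and a peak at ZT16.0 ± 0.74 h. Its adjusted p was 0.0017, and 0.00792 beside lane. The test between time points gave an adjusted p of 0.000216. Within lane 2 alone, where ZT0, ZT3 and ZT6 were read together, Lep differed with an adjusted p of 0.00374, 1 of 7 members beside 12.7% of all genes. Within lane 3 its adjusted p was 0.644 and within lane 4 it was 0.117 (0.0287 without ZT21 replicate 2), and no member passed in either, where 1.75% and 4.06% of all genes did. Neither the cosine tests nor that within lane 2 lost its call for Lep under any alternative run, leaving out each library in turn included.

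Nrg4 changed less and more evenly. Its level at ZT0 was 127 CPM ± 14.3 (SD, n = 4), rose to 204 CPM ± 3.21 at ZT12 and was back at 133 CPM ± 5.80 at ZT21. The mice of ZT12 had 205, 200, 204 and 208 CPM, and those of ZT9 had 208, 192, 186 and 215 CPM. All 8 lay above every mouse of ZT0, at 144, 110, 129 and 125 CPM, and every mouse of ZT21, at 132, 137, 137 and 125 CPM. ZT9 and ZT12 were read on a different lane from both ZT0 and ZT21. Between ZT12 and ZT0, 16.3% of all genes had no overlap of mice, and between ZT21 and ZT9 14.3% had none. At ZT15, 3 mice stayed near the level of ZT12 with 204, 194 and 200 CPM and the other one had 153 CPM.

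The cosine of Nrg4 had an amplitude of 0.36 ± 0.03 (SE, log2) and a peak at ZT11.3 ± 0.33 h. Its adjusted p was 1.95e-09 without lane and 0.00728 beside lane. The test between time points gave 9.88e-07. Within lanes Nrg4 did not pass (adjusted p = 0.111 in lane 2, 0.738 in lane 3 and 0.223 in lane 4). The means within lane 2 were 127, 140 and 161 CPM from ZT0 to ZT6, and without TMM scaling the adjusted p in that lane was 0.0398. Of its exon bases, 545 overlap the antisense genes Fbxo22 and Gm15625, and reads of such genes cannot be told apart where counting does not use strand, which is not stated here.

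The promoters shown are those of the 2 genes that kept their cosine beside lane, and that of Fgf21, which passed it in a fit without a filter on low counts. Each is the 250 bases before the RefSeq start on build GRCm38.p6, 5′ to 3′ on the gene's strand, with matches to the motifs searched in capitals. The Lep window is chr6:29059971-29060220 on the plus strand, that of Nrg4 is chr9:55283626-55283875 and that of Fgf21 is chr7:45615491-45615740, both on the minus strand. The 50 bases after the start lay unbroken in the gene's own GENCODE transcripts for Nrg4 and Fgf21, and the first 30 of them did for Lep. The Nrg4 window lies inside the gene: 9 of its 13 GENCODE transcripts start within 100 bases of this RefSeq start, and the farthest one starts 43219 bases upstream.
Lep: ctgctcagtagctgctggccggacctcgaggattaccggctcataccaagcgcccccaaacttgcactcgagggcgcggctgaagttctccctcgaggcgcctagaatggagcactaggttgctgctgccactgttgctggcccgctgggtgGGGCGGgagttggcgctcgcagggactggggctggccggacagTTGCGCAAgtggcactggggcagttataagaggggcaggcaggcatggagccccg
Nrg4: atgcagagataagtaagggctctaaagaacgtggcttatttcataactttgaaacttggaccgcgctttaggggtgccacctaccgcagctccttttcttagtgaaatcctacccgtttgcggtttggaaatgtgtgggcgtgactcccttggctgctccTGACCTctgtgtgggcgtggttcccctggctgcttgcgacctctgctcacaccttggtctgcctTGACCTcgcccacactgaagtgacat
Fgf21: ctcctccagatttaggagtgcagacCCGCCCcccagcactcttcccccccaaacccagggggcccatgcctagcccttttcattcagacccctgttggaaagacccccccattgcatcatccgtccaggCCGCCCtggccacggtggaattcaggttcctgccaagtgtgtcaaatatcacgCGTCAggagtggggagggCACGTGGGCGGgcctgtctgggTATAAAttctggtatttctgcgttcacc

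The letters searched on both strands were CACGTG (the E-box that clock proteins bind), TTATGTAA (D-box), AGGTCA (bound by ROR and other nuclear receptors), TTGCNNAA (C/EBP), TGACG (the core of the cAMP response element) and GGGCGG (GC box). A further one was TATAAA, found near many gene starts. Lep held the C/EBP match TTGCGCAA starting 55 bases before the start, a motif present in 9.56% of 32851 promoter windows of this length, and a GC box at 98 bases, present in 32.7%. Nrg4 held AGGTCA on its reverse strand, as TGACCT, at 90 and 26 bases before the start, a motif present in 14.0% of windows. Fgf21 held CACGTG at 50 bases, present in 6.02% of windows and overlapping a GC box, and TATAAA at 28 bases, present in 12.4%. It also held TGACG on its reverse strand, as CGTCA, at 68 bases, present in 17.8%, and GC boxes at 225 and 121 bases. These are matches of letters, and binding was not measured here.

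Time points 12 h apart were then compared, each pair in the fit of all 32 libraries. Lep did not pass between ZT12 and ZT0 (log2 fold change 0.36 ± 0.43 SE, adjusted p = 0.618). It was higher at ZT15 than at ZT3 by 2.07 ± 0.44 (adjusted p = 0.00228) and higher at ZT18 than at ZT6 by 2.50 ± 0.45 (adjusted p = 0.000428), with no overlap of mice in either, where 17.3% and 22.9% of all genes had none. At ZT21 against ZT9 its log2 fold change was -0.69 ± 0.43 (adjusted p = 0.339). Nrg4 was higher at ZT12 than at ZT0 by 0.68 ± 0.09 (adjusted p = 8.08e-06) and at ZT15 than at ZT3 by 0.42 ± 0.09 (adjusted p = 0.00241), the latter with overlapping mice and an adjusted p of 0.0534 from those 8 libraries alone. It was lower at ZT21 than at ZT9 by a log2 fold change of -0.59 ± 0.09 (adjusted p = 1.2e-04), and at ZT18 against ZT6 it gave -0.14 ± 0.09 (adjusted p = 0.33). All 4 pairs compare time points of 2 different lanes.

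In these pairs, 1 of 7 members passed for ZT12 against ZT0, beside 15.9% of all genes, 2 for ZT15 against ZT3, beside 14.2%, 1 for ZT18 against ZT6, beside 16.9%, and 2 for ZT21 against ZT9, beside 9.62%. Adipoq was the second of the last pair, and its mice at the 2 times did not overlap. Retn also had no overlap between ZT21 and ZT9, with a log2 fold change of -0.78 ± 0.31 that did not pass (adjusted p = 0.114), and 14.3% of all genes had no overlap there. Cfd had none between ZT12 and ZT0, with 0.42 ± 0.20 (adjusted p = 0.145), beside 16.3% of all genes.

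**Figure D3:**
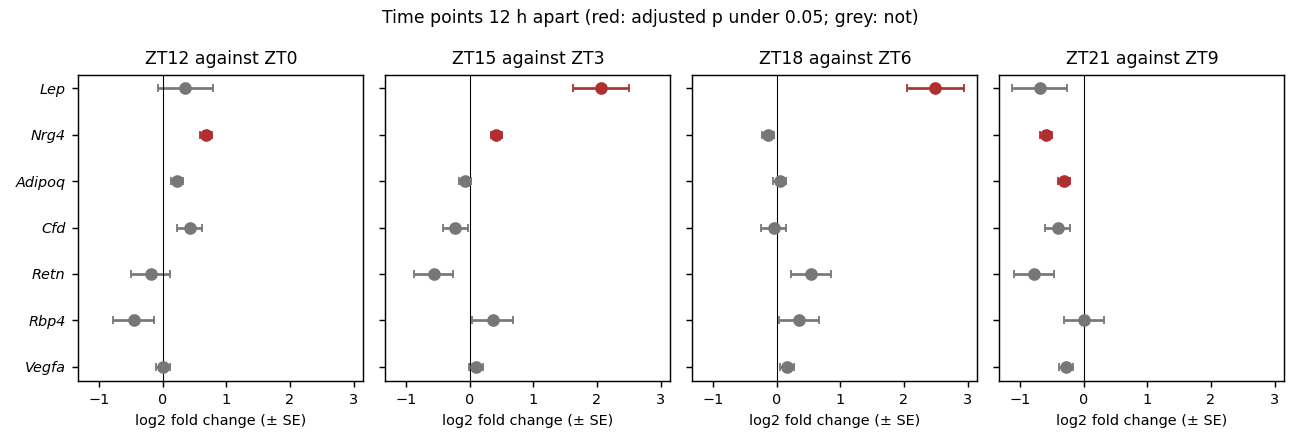
Log2 fold change (± SE, horizontal axes) of the 7 tested genes between time points 12 h apart, in 4 panels, red where the adjusted p was under 0.05. Lep stood at 2.07 and 2.50 for ZT15 against ZT3 and ZT18 against ZT6, and Nrg4 changed from 0.68 for ZT12 against ZT0 to -0.59 for ZT21 against ZT9.

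Adipoq varied little over the day. Its highest mean was 914 CPM ± 70.7 (SD, n = 4) at ZT12 and its lowest 739 CPM ± 44.3 at ZT21, a ratio of 1.24. The mice of ZT9 had 904, 884, 989 and 872 CPM and those of ZT21 had 757, 791, 719 and 689 CPM. The log2 fold change of ZT21 against ZT9 was -0.30 ± 0.10 (SE, adjusted p = 0.046). The cosine had an amplitude of 0.11 ± 0.04 and a peak at ZT10.2 ± 1.25 h, with an adjusted p of 0.0427 and of 0.718 beside lane. Within lanes its adjusted p was 0.505, 0.526 and 0.495. The test between time points gave 0.0645, and passed without ZT3 replicate 1 or ZT6 replicate 4 (0.0381 and 0.0168). The cosine call was lost when any of 16 of the 32 libraries was left out (adjusted p up to 0.0853, without ZT9 replicate 3), and that of ZT21 against ZT9 when any of 19 was (up to 0.134, without ZT21 replicate 4).

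Cfd, the member with the most counts, was highest at ZT3 with 1661 CPM ± 372 and lowest at ZT21 with 1022 CPM ± 153. Its mice at ZT3 had 1251, 2016.9, 1931 and 1443 CPM, next to 1012, 1182, 914 and 1066 CPM at ZT0. Both were read on lane 2, where the test of the 3 time points gave an adjusted p of 0.0683, and of 0.043 without ZT3 replicate 1 and 0.0311 without ZT6 replicate 4. Fibroblast markers, 5 genes, summed to 177 to 281 CPM at ZT0 and 283 to 472 CPM at ZT3, and macrophage markers to a median of 24.9 and 46.0 CPM, and their part in the Cfd values was not tested. Cfd passed the test between all time points (adjusted p = 0.0461) and not the cosine (adjusted p = 0.175, and 0.901 beside lane). The time point call was lost without any of 18 of the 32 libraries, with an adjusted p up to 0.113 without ZT3 replicate 2.

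Retn spread widely among mice of 1 time point, with a median coefficient of variation of 27.5% where Adipoq had 7.57%. At ZT3 its mice had 28.1, 84.4, 78.0 and 36.0 CPM, 2 of them above every mouse of the other time points. The means lay between 28.0 CPM ± 3.70 at ZT21 and 56.6 CPM ± 28.7 at ZT3. Neither the cosine (adjusted p = 0.693) nor the test between time points (adjusted p = 0.0735) passed. The latter passed without ZT3 replicate 1, ZT3 replicate 4 or ZT6 replicate 2 (adjusted p = 0.0232, 0.0471 and 0.0258).

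Rbp4 had its highest mean at ZT18, 78.3 CPM ± 10.2, and its lowest at ZT3, 43.1 CPM ± 5.47. At ZT9 its mice had 97.1, 77.3, 31.8 and 38.4 CPM, a coefficient of variation of 51.1%. The adjusted p was 0.502 for the cosine and 0.332 between time points. Vegfa lay between 487 CPM ± 49.2 at ZT21 and 625 CPM ± 31.6 at ZT15, a ratio of 1.28. Its adjusted p was 0.417 for the cosine and 0.0912 between time points. Without ZT9 replicate 1, whose 434 CPM was the lowest Vegfa value of all mice, it passed between time points (0.0107) and for ZT21 against ZT9 (0.00811).

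Fgf21 had 94 counts over all 32 libraries, with 0 to 14 in each, and 6 libraries had none. A count of 0 allowed up to 0.158 to 0.193 CPM, depending on the library, for counting error alone. The libraries of ZT15 held 1, 6, 7 and 7 counts and those of ZT18 held 7, 12, 4 and 1. From ZT3 to ZT12 no library held more than 2 counts. ZT0 held 1, 4, 14 and 2 counts, so that 1 mouse carried most of its total. Summed over 4 mice, Fgf21 reached 0.332 CPM at ZT18 (exact Poisson 95% interval 0.213 to 0.494) and 0.0290 CPM at ZT9 (0.00351 to 0.105), intervals that cover counting error and not the spread between mice.

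Fgf21 was tested in the fit without the filter on low counts. There it gave an adjusted p of 0.00619 for the cosine, where 15.7% of 30586 genes passed, 0.00547 beside lane, where 6.80% did, and 0.0265 between time points, where 16.0% did. All 3 calls held when any 1 library was left out, which was tried after seeing the data, with the highest adjusted p at 0.0205 and 0.0489 without ZT18 replicate 2 for the cosine and between time points, and at 0.0283 without ZT0 replicate 3 beside lane. No pair of time points 12 h apart passed, the lowest adjusted p being 0.115 for ZT18 against ZT6, and none of the 3 lanes did, with 0.149, 0.176 and 0.748. Liver markers, 5 genes, summed to at most 0.498 CPM in any library, with Ttr and Ahsg at 3 counts or fewer over all libraries.

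Bmp8b had 84 counts in all, with 0 to 10 per library and 7 libraries at 0. Its largest sum was 24 counts at ZT0 (0.357 CPM, exact Poisson 95% interval 0.229 to 0.531) and its smallest 3 counts at ZT15 (0.0428 CPM, 0.00882 to 0.125). These intervals too cover counting error alone, and the mice of ZT0 held 10, 4, 9 and 1 counts. Without the filter its adjusted p was 0.313 for the cosine and 0.465 between time points. It passed none of the 3 tests without the filter, and none of the 32 fits that left out 1 library passed either. Of its 100-base stretches, 97.1% were unique to it and the rest were shared with its paralog Bmp8a, which had 22 counts in all. Another 472 exon bases overlap the antisense genes Gm17244 and Ppie.

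Relations among mice of the same time point were asked next. For the 21 pairs of the 7 tested genes, log2 CPM was taken as the deviation from the time-point mean and tested by permuting mice within time points. Of these, 4 pairs passed a Benjamini-Hochberg adjusted p of 0.05. An r at least as far from 0 as theirs was held by 0.168% to 4.00% of all pairs of tested genes. Adipoq and Cfd had Pearson's r = 0.784 (permutation p = 2e-05, adjusted 0.00042) and Spearman's rho = 0.785 (adjusted 0.00042). Within lanes their r was 0.908, 0.715 and 0.690 (unadjusted p by exact permutation 0.00297, 0.02185 and 0.115). It was 0.726 without the 2 mice farthest from the median of Adipoq. This pair passed when any 1 library was left out, with an adjusted p of at most 0.00315.

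Retn joined both of them. Its r with Cfd was 0.633 (permutation p = 0.00237, adjusted 0.0249; rho = 0.636, adjusted 0.0138), and 0.599 without the 2 mice farthest in Retn. Its r with Adipoq was 0.613 (permutation p = 0.0048, adjusted 0.0325; rho = 0.646, adjusted 0.0138), and 0.605 without the 2 farthest in Adipoq. Within lanes 2, 3 and 4 the r of Retn was 0.724, 0.552 and 0.620 with Cfd and 0.636, 0.669 and 0.5003 with Adipoq. By exact permutation, the unadjusted p in these lanes was 0.0467, 0.115 and 0.172 with Cfd and 0.0638, 0.0158 and 0.349 with Adipoq. Without ZT6 replicate 1, which had the lowest Adipoq and Retn of all mice, the adjusted p rose to 0.0593 for Retn and Cfd and 0.0753 for Adipoq and Retn, and the latter pair also failed without ZT3 replicate 1. Cfd and Rbp4 went opposite ways with r = -0.551 (permutation p = 0.0062, adjusted 0.0325; rho = -0.521, adjusted 0.0527), which fell to -0.352 (permutation p = 0.0635) without the 2 mice farthest in Cfd. Within lanes the r of this pair was -0.292, -0.787 and -0.581 (unadjusted p by exact permutation 0.4695, 0.0107 and 0.115). The pair passed in 23 of the 32 fits that left out 1 library.

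**Figure D4:**
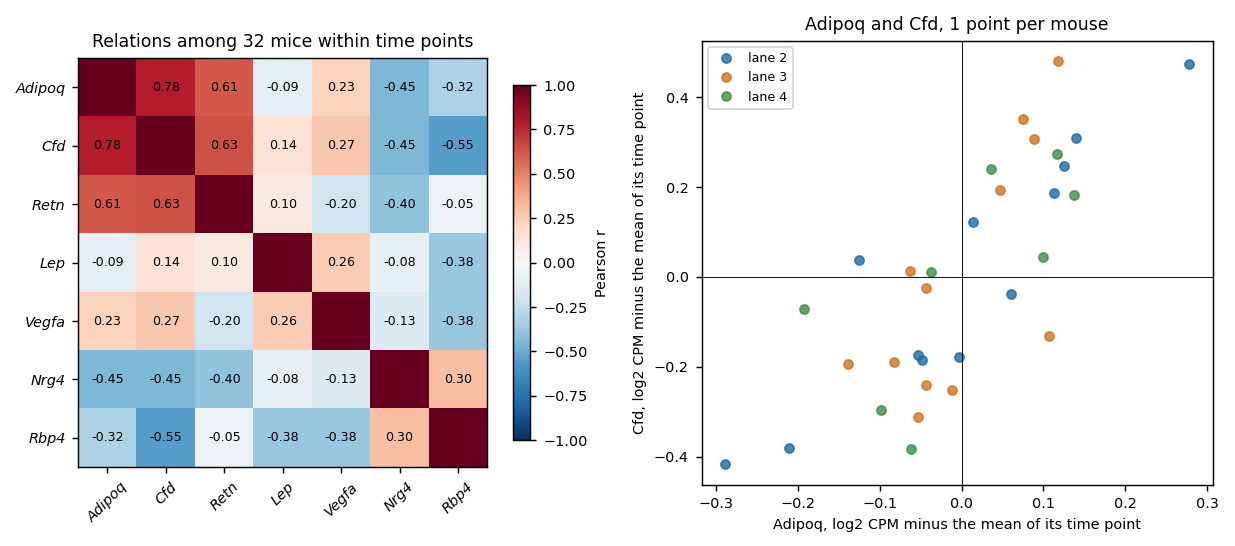
Left, Pearson's r between the 7 tested genes among 32 mice, on deviations of log2 CPM from the mean of the time point, blue to red from -1 to 1. Right, the deviation of Cfd (vertical axis) against that of Adipoq (horizontal axis), 1 point per mouse coloured by lane, with r = 0.784.

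No pair with Lep passed. Its r was -0.09 with Adipoq, 0.14 with Cfd and 0.10 with Retn, each with an adjusted p of 0.647 by permutation. Marker sums moved with some members among mice of 1 time point, given as a description over 32 mice that share libraries with the members. The white fat marker sum had r = 0.724 with Retn, 0.5998 with Cfd, 0.533 with Adipoq, 0.355 with Lep, -0.387 with Rbp4 and -0.507 with Nrg4. The fibroblast marker sum had r = 0.476 with Retn, 0.449 with Cfd and -0.365 with Rbp4. The macrophage marker sum had r = 0.526 with Cfd and -0.419 with Rbp4. With Lep its r was 0.473 but its rho 0.234, and 1 library of ZT9 had a sum of 119 CPM where the median of all was 35.5 CPM. The brown adipocyte marker sum had r = -0.507 with Lep. The endothelial marker sum had r = 0.558 with Vegfa and -0.610 with Rbp4, and Vegfa had r = -0.456 with that of muscle. Their part in the relations was not tested.

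The genes whose 8 time-point means were most like those of a member are given as a description. For Lep they were Rps13 (r = 0.989), Psme3 (0.979) and Snhg6 (0.970), all with a fitted peak between ZT15.6 and ZT16.3 but amplitudes of 0.18, 0.06 and 0.18. For Nrg4 they were Atraid (r = 0.989), Tex264 (0.985) and Grina (0.984), of which Tex264 and Grina passed the cosine beside lane (adjusted p = 0.015 and 0.0289) and Grina had an amplitude of 0.38. For Cfd they were Ttc3 (0.986), Tgfbr3 (0.965) and Cd9 (0.960), for Adipoq Map2k7 (0.972), Cpxm2 (0.972) and Fggy (0.969), and for Rbp4 Fam136a (0.983), Polr2k (0.976) and Ldha-ps2 (0.976). For Vegfa they were Cmklr1 (0.974), Zfp768 (0.955) and Smim1 (0.944). For Retn they were Car5b (0.944), Serpina3n (0.937) and Gda (0.935), and these 3 had r = 0.715, 0.845 and 0.568 with Retn within time points as well. For the 3 genes of Lep that value was 0.13, -0.54 and -0.15, and for those of Nrg4 it was -0.37, -0.18 and -0.43.

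Among 30 receptors and binding partners of the members, 25 were tested. In the cosine 8 passed, in the cosine beside lane 5 and within at least 1 lane 6, where 36.1%, 17.2% and 15.9% of all genes did. Both main receptors of Vegfa passed a test. Kdr was highest at ZT0 with 320 CPM ± 38.0 and lowest at ZT12 with 185 CPM ± 10.1, 2 time points of different lanes. It differed within lanes 3 and 4 (adjusted p = 0.0191 and 0.0405) and did not pass within lane 2 (0.218) or beside lane (0.111). Flt1, the decoy-like receptor of Vegfa, was highest at ZT15 with 206 CPM ± 5.19 and lowest at ZT3 with 166 CPM ± 11.9 (adjusted p = 0.012 beside lane). Erbb3, an ErbB receptor, was at 5.74 CPM ± 1.86 at ZT0 and 13.7 CPM ± 1.14 at ZT3, and it differed within lane 2 (adjusted p = 0.00686) and lane 4 (0.027). Fibroblast markers summed to 177 to 281 CPM at ZT0 and 283 to 472 CPM at ZT3, and their part in the Erbb3 values was not tested. Fgfr1, which pairs with Klb to bind Fgf21, had 94.2 CPM ± 11.5 at ZT3 and 65.3 CPM ± 8.25 at ZT15 (adjusted p = 0.00407 beside lane). Acvr1c, a receptor of the TGF-beta family, had 151 CPM ± 20.7 at ZT3 and 74.5 CPM ± 4.52 at ZT15 (adjusted p = 0.0176 beside lane).

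The receptors that follow are named for their ligands and were chosen after their values were seen. The leptin receptor Lepr had a mean of 0.589 CPM and did not pass (adjusted p = 0.28 for the cosine). Erbb4, the receptor of Nrg4, had a mean of 9.29 CPM (adjusted p = 0.371). The adiponectin receptors Adipor1 and Adipor2 had means of 182 and 865 CPM, and Adipor1 passed the cosine with an amplitude of 0.09 ± 0.02 (adjusted p = 0.00273, and 0.724 beside lane). Klb had an amplitude of 0.55 ± 0.09 and a fitted peak at ZT1.2 (adjusted p = 7.42e-05, and 0.145 beside lane).

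Of 40 other secreted factors, 32 were tested, and 9 passed the cosine, 1 the cosine beside lane and 6 a test within a lane, beside 36.1%, 17.2% and 15.9% of all genes. The factor that passed beside lane was C1qtnf1, an adiponectin relative, with 14.8 CPM ± 2.85 at ZT6 and 8.81 CPM ± 1.72 at ZT0 (adjusted p = 0.00782). Fgf9 and Slit2 differed within lane 2 (adjusted p = 0.0149 and 0.0244), and Ccl2 and the vasodilator Adm within lane 4 (0.0394 and 0.0464). Their means were low, at 0.564, 0.834, 0.444 and 2.38 CPM. Fgf9 was highest at ZT6 with 1.31 CPM, and Ccl2 lowest at ZT21 with 0.156 CPM. Whether Fgf9, Slit2 and Ccl2 passed the filter on low counts only through time points where they were high was not tested. Of 17 paralogs of the members, 8 were tested, and 3 passed the cosine, 1 the cosine beside lane and 1 within a lane, beside the same shares of all genes. Nrg2, a relative of Nrg4, had 0.611 CPM ± 0.0865 at ZT21 and 0.117 CPM ± 0.0504 at ZT9, a fitted peak at ZT19.6 ± 0.50 h and an adjusted p of 0.00491 beside lane. The libraries of ZT9 held 1, 2, 2 and 3 counts of Nrg2 and those of ZT21 held 12, 12, 10 and 9, so that it passed the filter on low counts through the time points where it was high. Vegfc differed within lane 4 (adjusted p = 0.0369).

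Of 12 genes of the secretory pathway, all tested, 3 passed the cosine, 1 the cosine beside lane and 4 within a lane, beside 36.1%, 17.2% and 15.9% of all genes. Sort1, a sorting receptor, had 322 CPM ± 22.6 at ZT9 and 218 CPM ± 21.5 at ZT18 (adjusted p = 0.000376 beside lane). Sec24d, Pdia4 and Hspa5, which serve transport and folding in the endoplasmic reticulum, differed within lane 2 (adjusted p = 0.00836, 0.0166 and 0.0381). They did so in different directions. Sec24d was lowest at ZT0 with 10.6 CPM and highest at ZT6 with 17.9 CPM, while Pdia4 and Hspa5 were highest at ZT0 with 39.3 and 294 CPM. Of 16 known regulators of the members, all tested, 11 passed the cosine, 8 the cosine beside lane and 4 within a lane, beside those same shares. The clock repressor Nr1d1 had the largest amplitude of these, 1.96 ± 0.10, with 223 CPM ± 24.1 at ZT6 and 19.1 CPM ± 3.43 at ZT21. Srebf1, a lipogenic factor, had a fitted peak at ZT15.3 ± 1.00 h (adjusted p = 0.0118 beside lane), and Foxo1, which insulin holds in check, at ZT10.5 ± 0.61 h (adjusted p = 0.00879). Ppara, the fatty acid receptor that drives Fgf21 in liver, peaked at ZT8.6 ± 1.00 h (adjusted p = 0.0311), and Mlxipl, the glucose-sensing factor also known as ChREBP, at ZT20.6 ± 0.91 h (adjusted p = 0.0058).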

How the data were processed

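RNA of 32 iBAT pieces went into stranded libraries read from both ends. The authors mapped reads to mouse genome mm10 with GSNAP (2017-09-11) and deposited raw counts per Ensembl gene from HTSeq-count (0.6.1). The strand setting of the counting is not given in the sources used here. Groups came from the time point in the sample labels, and lanes from their descriptions. Of the genes, 15505 passed filterByExpr and were scaled by TMM. edgeR 4.0.16 in R 4.3.3 gave the quasi-likelihood tests, with Benjamini-Hochberg adjustment at 0.05. DESeq2 1.42.0 was an alternative. JTK used periods of 21 and 24 h and was written anew in Python 3.11.15 (numpy 2.4.6, scipy 1.17.1), with relations tested by 100000 permutations, two-sided. Amplitudes are on log2 CPM. Scripts were tested on simulated data. Replicate numbers did not pair mice: same-numbered mice of 2 time points had deviations with a median r of -0.119, against 0.0738 for other numbers. No 2 mice of a time point agreed within sampling noise (lowest mean chi-square 7.97 per gene).

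The 9 genes and all lists were chosen with earlier results of these data known. Named beside the members were the 3 genes with a mean of at least 1 CPM most like each tested member over the 8 time-point means, and at most 5 genes per list, by amplitude, that passed the cosine beside lane or differed within a lane. Exon lengths and overlaps are from GENCODE vM21 on GRCm38, and promoters from RefSeq on GRCm38.p6, where all 9 genes matched. Alternatives were other scalings, no filter, a replicate block, DESeq2, fits of fewer libraries, other JTK settings and a muscle marker covariate, the last chosen after seeing the data, as were the fits of Fgf21 and Bmp8b without each library.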

Additional observations from a re-analysis of the deposited data

Results flagged for a closer look

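In 3 of 72 groups of 4 mice, 1 mouse stood apart from the other 3 by Dixon's test, where chance gives about 1 in 20. Retn at ZT18 had 59.6 CPM in replicate 2, where the other mice had 35.1 to 37.3 CPM. Bmp8b at ZT3 had 0.18 CPM in replicate 1, which is 3 counts, where the others had 0.0545 to 0.0588 CPM. Fgf21 at ZT15 had 0.0526 CPM in replicate 1, which is 1 count, where the others had 0.355 to 0.411 CPM.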

How the results depend on the processing

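All Lep and Nrg4 calls of the cosine, the cosine beside lane, the time points and JTK held under every alternative run. Leaving out 1 library moved the count of genes called by over 1.5 times for ZT18 against ZT6 (1733 without ZT18 replicate 2, to 2804), for ZT21 against ZT9 (953 without ZT21 replicate 4, to 1637) and within lanes 2 (871 without ZT0 replicate 3, to 3292 without ZT0 replicate 4), 3 (53 without ZT15 replicate 3, to 392) and 4 (139 without ZT21 replicate 1, to 377, against 630 with all 8 libraries). The members called then ranged from 2 to 5 between time points, 1 to 2 for ZT21 against ZT9 and within lane 2, and 0 to 2 within lane 4, where Lep and Vegfa (adjusted p = 0.0425) passed without ZT21 replicate 2. Pairs of members passing ranged from 1, without ZT6 replicate 1, to 5. The fit of 8 libraries alone called 1259 genes for ZT12 against ZT0 (main 2459), 701 for ZT21 against ZT9 (main 1492) and 1 member for ZT15 against ZT3, beside 10.3% of genes, and for ZT21 against ZT9 Retn passed (0.0396) and Adipoq was lost (0.0614). The DESeq2 likelihood ratio test called 6 members between time points, beside 45.2% of all genes, adding Adipoq (0.018), Retn (0.0399) and Vegfa (0.0376). For ZT21 against ZT9, 966 genes passed without the filter, and Nrg4 was the 1 member called by library size alone, without mitochondrial genes, without the filter, with the replicate block or with the muscle covariate, beside 3.16% to 10.4% of genes. Library size alone called 2 members within lane 2, beside 9.93% of all genes, and lost Adipoq for the cosine (0.051) and Cfd between time points (0.0679), and the fit without the filter lost Adipoq for the cosine (0.0806). With replicate number as a block, 106 genes passed within lane 3 (main 272) and 72 within lane 4 (main 630), and Cfd was lost between time points (0.0525). With the muscle marker level as a covariate, chosen after seeing the data, 83 passed within lane 3 and 987 within lane 4, and Vegfa passed between time points (0.0274). The cause of these changes was not tested. Bmp8a and Bmp8b summed did not pass the filter and gave no test. With 4 mice per time point on 1 lane each, time and lane are separated within 3 lanes alone, and Fgf21 and Bmp8b rest on 94 and 84 counts.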
